A study of Mus musculus with 28 samples.

Results

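The comparison described here is that of mouse lungs after 4 exposures to carbon black with lungs after 4 exposures to air, 3 libraries against 3. These 6 libraries were taken by their labels from a series of 28, and all 14887 genes with enough counts for a test, of 35880 in the table, were compared. Male wild-type C57BL/6 mice, an inbred laboratory strain, aged 8 to 12 weeks by one label and 8 weeks by the treatment protocol, breathed sham air or carbon black at 10 mg/m3 for 3 hours a day. The RNA came from pulverized whole lung and was sequenced as stranded mRNA libraries. The other groups used were sham and carbon black after 1 exposure (day 1, 4 libraries each), and ozone at 2 ppm and co-exposure to carbon black and ozone on day 4 (3 libraries each). Number of exposures and day cannot be told apart, and how long after the last exposure lungs were taken is not stated here. The labels do not say that each library is a separate mouse, so the spread behind each p-value is that of libraries and may be technical.

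Carbon black is an aggregate of nearly pure carbon particles that does not dissolve in the lung. Particles that reach the alveoli are taken up chiefly by alveolar macrophages, resident phagocytes that carry them into lysosomes, acidic compartments kept at low pH by a proton-pumping ATPase. Inhaled particles can also draw neutrophils and monocytes from the blood, and epithelial cells answer irritants with mucins and secreted defence proteins.

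After 4 carbon black exposures, 24 genes rose and 7 fell. Among the risen were genes known from macrophages, lysosomes and innate receptors, and the membrane mucins Muc4 and Muc20. Gpnmb, a membrane glycoprotein of macrophages under lysosomal or lipid load, rose about 3.96-fold. Atp6v0d2, a subunit of the proton pump, rose 2.7-fold, and Cd68, a lysosomal membrane glycoprotein used as a macrophage marker, rose 2.33-fold. The fallen genes included Egfl7 and Rasip1, both known from endothelium, which were at 0.629-fold and 0.666-fold of sham. The 7 included 0 of 14 pan-endothelial markers. Those markers had a median log2 fold change of 0.01, with 7 above 0 and 7 below, and 4 were lower at an unadjusted p under 0.05. In all, 31 genes passed an adjusted p of 0.05 in edgeR's quasi-likelihood test, which is 0.208% of the genes tested. Of these, 24 were higher (0.161%) and 7 lower (0.047%). Under median-of-ratios scaling the split was 24 higher and 3 lower. Without adjustment, 2266 genes had a p under 0.05 (15.2%), 1203 of them higher (8.08%) and 1063 lower (7.14%). Over all genes tested, the median log2 fold change was 0.0091.

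The 6 libraries held between 5135492 and 9343272 estimated counts. In each of them Sftpc, the surfactant protein of alveolar type 2 cells, stood between 13470 and 18170 CPM (counts per 1000000 counts of the library, after TMM scaling), and Ager of alveolar type 1 cells between 1664 and 2380. Carbon black replicate 1 stood apart. It had the fewest counts (5135492), mitochondrial transcripts made up 7.55% of its counts against 2.16% to 3.24% in the other 5, and it lay at 63.4 on the first principal component of the 6 libraries (40.9% of the variance) against -24.5 to 5.11. Carbon black replicate 3 held skeletal muscle transcripts. Acta1, the actin of skeletal muscle, had 911 counts there and 0 to 11 in the other 5 libraries, and Ckm, a muscle creatine kinase, had 517 against 8 to 111. All 10 skeletal muscle markers were tested and their summed level was 584 CPM in that library, against 12.3 and 20.2 CPM in the other carbon black libraries and 21.8 to 26.6 CPM in sham.

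The number of genes past the threshold followed which library was in the fit. Leaving out carbon black replicate 1 left 12 genes, 11 of them among the 31. Leaving out carbon black replicate 3 gave 653 genes, 393 higher and 260 lower, with all 31 among them. Without carbon black replicate 2 the count was 17, and without sham replicates 1, 2 and 3 it was 15, 12 and 8. In all 6 of these fits, Gpnmb, Cxcr1, Atp6v0d2, Ccl6, Cd68 and Ctsk passed. With only the 6 compared libraries, Gpnmb, Ccl6 and Ctsk kept their call (edgeR adjusted p = 0.0411 each), while Cxcr1 was at 0.124, Atp6v0d2 at 0.14 and Cd68 at 0.157. With only the 12 day 4 libraries, Cxcr1 passed (0.0492) and the other 5 were at 0.0603. The 31 genes kept their direction in each of the 6 leave-out fits. That was fixed in advance, since the groups did not overlap in any of the 31. Of the 24 genes that rose, 16 had their highest value in carbon black replicate 1 and 18 had their lowest carbon black value in replicate 3.

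**Figure D1:**
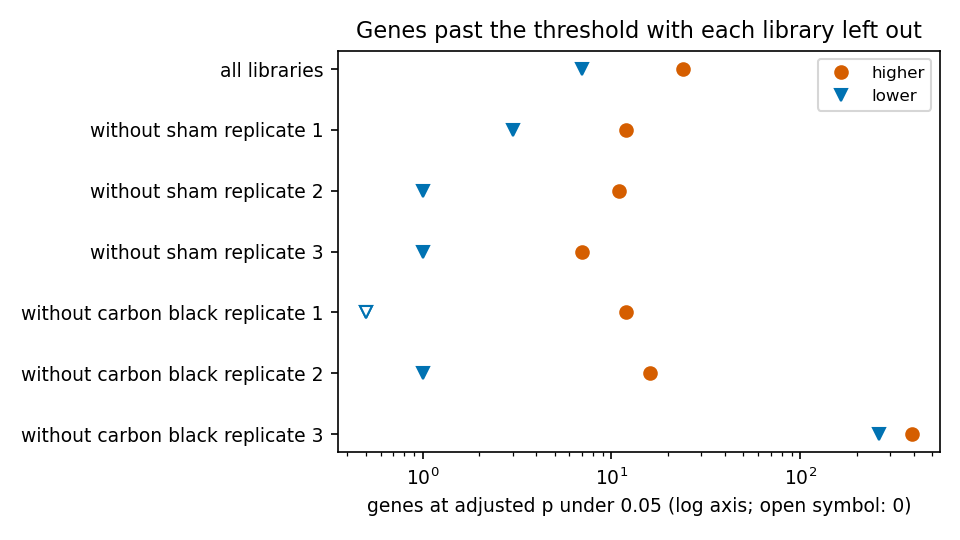
Number of genes at an adjusted p under 0.05 (x axis, log scale) in carbon black against sham on day 4, with all libraries and with each of the 6 left out in turn; circles count higher and triangles lower genes. Leaving out any of 5 libraries lowers the total from 31 to between 8 and 17, while leaving out carbon black replicate 3, the library with muscle transcripts, raises it to 653.

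The start regions of 5 of the risen genes are shown, Gpnmb because it shared the lowest adjusted p and the other 4 because they hold the same short motif. Each line gives the 250 bases before the first annotated start, from RefSeq on GRCm38.p6, on the gene's strand and 5′ to 3′. Capitals mark TGANTCA, the core bound by AP-1 factors. They are Gpnmb (chr6:49036268-49036517, plus strand), Cd68 (chr11:69666171-69666420, minus strand), the scavenger receptor gene Olr1 (chr6:129507166-129507415, minus strand), Plet1 of alveolar macrophages and epithelium (chr9:50494275-50494524, plus strand) and Cp, which encodes ceruloplasmin (chr3:19956804-19957053, plus strand).
Gpnmb: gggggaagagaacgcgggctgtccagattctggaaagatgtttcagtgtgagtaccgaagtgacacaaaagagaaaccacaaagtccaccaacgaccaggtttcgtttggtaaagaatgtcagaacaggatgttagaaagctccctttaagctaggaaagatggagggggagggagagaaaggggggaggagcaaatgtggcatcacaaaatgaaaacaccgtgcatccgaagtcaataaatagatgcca
Cd68: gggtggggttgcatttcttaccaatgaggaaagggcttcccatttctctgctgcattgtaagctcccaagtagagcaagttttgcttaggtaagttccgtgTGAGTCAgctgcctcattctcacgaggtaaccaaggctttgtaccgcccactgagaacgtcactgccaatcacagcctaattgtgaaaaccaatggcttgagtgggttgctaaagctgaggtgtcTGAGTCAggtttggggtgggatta
Olr1: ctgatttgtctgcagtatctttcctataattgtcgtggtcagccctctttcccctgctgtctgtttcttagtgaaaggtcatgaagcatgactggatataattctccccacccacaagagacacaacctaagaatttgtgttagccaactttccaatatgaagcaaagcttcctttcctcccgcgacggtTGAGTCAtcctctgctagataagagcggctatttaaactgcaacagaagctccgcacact
Plet1: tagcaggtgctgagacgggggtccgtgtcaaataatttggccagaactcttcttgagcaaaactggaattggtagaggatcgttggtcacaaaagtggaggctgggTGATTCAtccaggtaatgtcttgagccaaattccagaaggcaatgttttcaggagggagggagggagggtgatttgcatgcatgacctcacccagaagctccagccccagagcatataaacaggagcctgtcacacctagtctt
Cp: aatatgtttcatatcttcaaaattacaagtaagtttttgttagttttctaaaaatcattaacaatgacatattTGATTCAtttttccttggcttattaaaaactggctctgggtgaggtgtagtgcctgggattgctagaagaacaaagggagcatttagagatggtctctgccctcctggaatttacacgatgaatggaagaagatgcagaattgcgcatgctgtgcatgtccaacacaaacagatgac

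The motif began 149 and 24 bases before the start of Cd68, 60 before that of Olr1, 144 before that of Plet1 and 177 before that of Cp, and these letters were not in the Gpnmb window. Of the 24 risen genes, 20 had a promoter entry, and TGANTCA, which reads the same on either strand, was in 5 of the 20 (the fifth was Tnfsf13). It was in 7.82% of 27025 genes with such a window. The E-box CACGTG was in 1 of the 20 (Ceacam1) and in 6.86% of all genes. TCANGTG, the core of sites bound by MITF and TFEB, factors of lysosomal genes, was searched on both strands and can overlap the E-box; it was in 0 of 20 and in 13.8% of all genes. GAGGAAGT, a site of the macrophage factor PU.1, was in 0 of 20 and 2.79%. The motifs were chosen after the genes were known, so these shares are a description.

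Gpnmb, Atp6v0d2, Cd68 and Ctsk, all known from macrophages, are 4 of the 6 genes that passed with any 1 library left out. Gpnmb (ENSMUSG00000029816, chromosome 6, 49036546 to 49070929 in GRCm38) stood at 15, 12.9 and 8.81 CPM in sham replicates 1 to 3 and at 60.8, 48.9 and 35.9 in carbon black. All carbon black libraries lay well above all sham libraries. Its log2 fold change was 1.98 ± 0.26 (SE, n = 3 and 3; edgeR adjusted p = 0.000683). Atp6v0d2 (ENSMUSG00000028238, chromosome 4, 19876841 to 19922605) was at 32, 29.4 and 25.5 CPM in sham and 109, 73.6 and 53.4 in carbon black, with no overlap and a log2 fold change of 1.44 ± 0.21 (edgeR adjusted p = 0.00126). Cd68 (ENSMUSG00000018774, chromosome 11, 69664213 to 69666153) had 24.4, 21.4 and 23.7 CPM in sham against 74.2, 49.7 and 39.5. The sham libraries were close together and the carbon black libraries spread upward, replicate 1 most, for a log2 fold change of 1.22 ± 0.20 (edgeR adjusted p = 0.00391). Ctsk (ENSMUSG00000028111, chromosome 3, 95499256 to 95509362), a lysosomal protease that cleaves collagen, was nearly even within each group, at 18.2, 19.1 and 19.6 CPM in sham and 48, 44.3 and 37 in carbon black. Its log2 fold change was 1.18 ± 0.19 (edgeR adjusted p = 0.00391).

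Clec7a, Olr1 and Clec5a, 3 receptors found on phagocytes, rose, while other receptors of phagocytes, such as Marco and Clec4e, did not pass. Clec7a, the receptor for fungal beta-glucan, was at 37.9, 29.5 and 31 CPM in sham and 101.5, 78.6 and 60.5 in carbon black (log2 fold change 1.28 ± 0.22, edgeR adjusted p = 0.00739). Olr1, a receptor for oxidized lipoproteins (ENSMUSG00000030162, chromosome 6, 129485244 to 129507165), was at 7.33, 7.22 and 5.91 CPM against 18, 20.9 and 13.7 (1.36 ± 0.24, adjusted p = 0.00822). Clec5a, a lectin receptor of myeloid cells, was at 2.4, 1.69 and 2.15 CPM against 7.79, 5.19 and 4.59 (1.45 ± 0.30, adjusted p = 0.0331). In none of the 3 did the groups overlap. Clec7a passed in 3, Olr1 in 4 and Clec5a in 1 of the 6 fits that leave out a library, and their largest adjusted p there, in edgeR, were 0.0742, 0.123 and 0.191.

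Of genes that act on leukocytes, Ccl6, Cxcr1 and Ear6 rose. Ccl6 (ENSMUSG00000018927, chromosome 11, 83587882 to 83593087), a CC chemokine made by mouse macrophages and other myeloid cells, was at 132, 90.5 and 89.5 CPM in sham and 287, 349 and 241 in carbon black. The groups were well apart, with a log2 fold change of 1.49 ± 0.22 (edgeR adjusted p = 0.00179). A noncoding transcript, E230016K23Rik, overlaps it on the other strand. Cxcr1 (ENSMUSG00000048480, chromosome 1, 74191785 to 74194631), a chemokine receptor of neutrophils, was near the detection limit in sham, at 0.361, 0.307 and 0.107 CPM, and at 1.73, 8.2 and 4.46 in carbon black. Over the groups this was 6 against 101 counts, a ratio of 21 after scaling (95% counting interval 9.32 to 58.6), with an edgeR adjusted p of 0.000683. Ear6, of a family of ribonucleases first found in eosinophils, had 0 counts in sham and 40 in carbon black (3.46, 1.64 and 1.62 CPM). With 3 counts taken as the limit for the whole sham group, the ratio was 16.6, and the 95% counting interval began at 12.9. Ear6 had an edgeR adjusted p of 0.00561, and of 0.06 in the leave-out where it did not pass. Ear genes are near-identical copies, so the division of reads among them is uncertain. Tnfsf13, a cytokine (APRIL) that sustains plasma cells, rose by 0.70 ± 0.14 on the log2 scale (adjusted p = 0.0187) but shares its locus and strand with the readthrough gene Tnfsfm13 and passed in 1 leave-out.

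**Figure D2:**
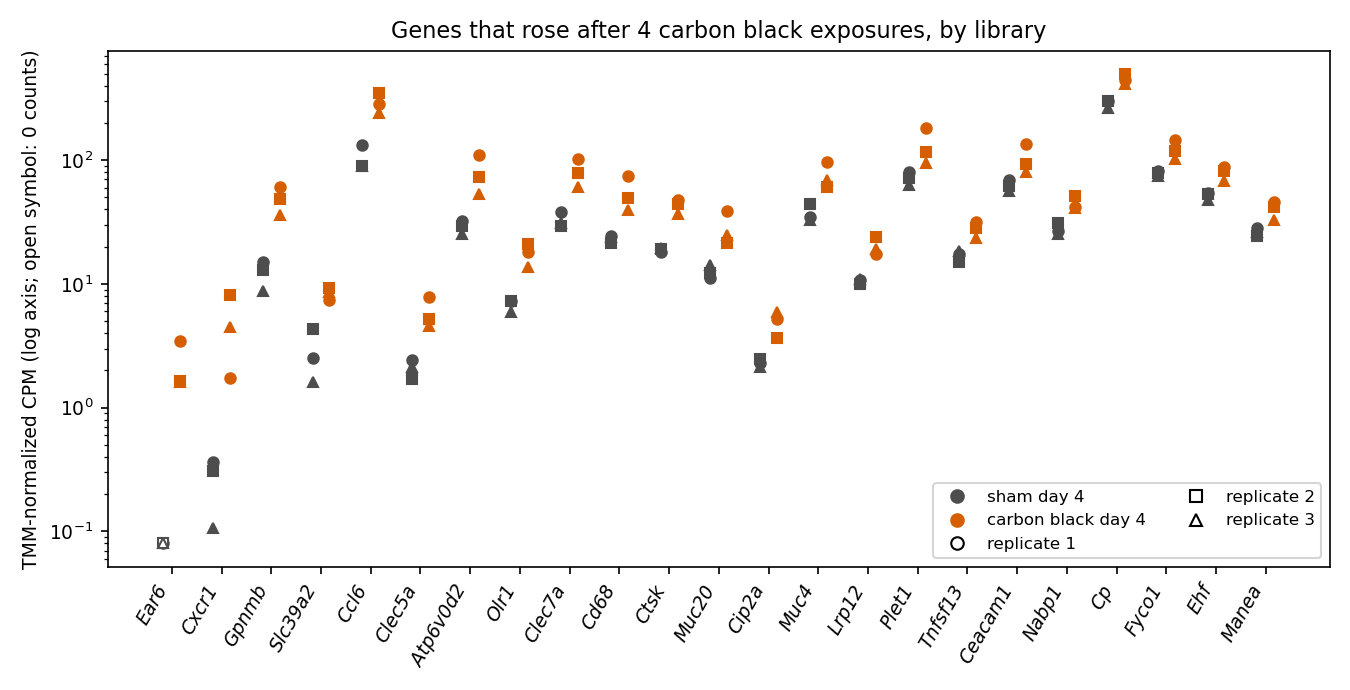
TMM-normalized CPM (y axis, log scale) of 23 of the 24 risen genes in the 3 sham (grey) and 3 carbon black (orange) libraries of day 4, with a symbol for each replicate and open symbols for 0 counts; Sept2, whose reads are divided between 2 gene identifiers, is left out. In each gene all carbon black values lie above all sham values, and replicate 1 (circles) is often the highest carbon black value.

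A further 6 risen genes are known from epithelium, though Plet1, Ceacam1 and Cp are known from other cells too; none of the 6 is on an epithelial marker list, and edgeR called 0 members of those lists. Muc4, a membrane-bound mucin, was at 35, 44.1 and 32.8 CPM in sham and 97.4, 60.9 and 69.2 in carbon black (log2 fold change 1.02 ± 0.18, edgeR adjusted p = 0.00838). Muc20, a neighbouring mucin gene whose 3′ end overlaps Muc4 on the opposite strand, rose by 1.17 ± 0.25 (adjusted p = 0.0423). The sources used here do not say whether counting used the strand of the reads, so this pair cannot be fully separated. Ehf, an ETS transcription factor of epithelia, rose by 0.61 ± 0.12 (adjusted p = 0.0243), Plet1 by 0.87 ± 0.16 (adjusted p = 0.0119) and Ceacam1, an adhesion receptor of epithelium and leukocytes, by 0.70 ± 0.13 (adjusted p = 0.013). Cp, a copper-bound enzyme that oxidizes iron and an acute phase protein, was at 300.4, 302 and 264 CPM in sham and 446, 495 and 414 in carbon black. That is a modest but even difference of 0.65 ± 0.11 (adjusted p = 0.00822). In the edgeR fits without 1 library, Cp passed in 4, Muc4, Plet1 and Ceacam1 in 3, Muc20 in 2 and Ehf in 1.

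The remaining rises do not share a role. Slc39a2, a zinc importer, was at 2.52, 4.3 and 1.61 CPM in sham and 7.36, 9.29 and 8.65 in carbon black (1.62 ± 0.29, edgeR adjusted p = 0.00822), without overlap; Mettl17 overlaps its start on the same strand and was at -0.48. Fyco1, an adaptor that moves late endosomes and autophagosomes along microtubules, rose by 0.64 ± 0.13 (adjusted p = 0.028). The transcript AC165425.1 overlaps Fyco1 on the same strand and Cxcr6 overlaps it on the opposite strand. Lrp12, of the LDL receptor family, rose by 0.93 ± 0.19 (0.028), Nabp1, which binds single-stranded DNA, by 0.69 ± 0.15 (0.0466), and Manea, an enzyme of N-glycan trimming, by 0.60 ± 0.13 (0.0474). Cip2a, an inhibitor of the phosphatase PP2A in dividing cells, was at 2.29, 2.46 and 2.15 CPM against 5.19, 3.69 and 5.95 (1.10 ± 0.23, adjusted p = 0.0335). The septin Sept2 passed (1.32 ± 0.27, adjusted p = 0.0331) at 1 identifier, at 21.9, 19.8 and 32.4 against 96.9, 55.1 and 36.6 CPM. A second identifier with the same symbol at the same place holds most of the counts, and the sum of both was 283, 229 and 263 CPM in sham and 312, 324 and 262 in carbon black, with the groups overlapping. Its rise is therefore uncertain. Slc39a2 passed in 4 leave-outs, Lrp12, Cip2a and Sept2 in 2, and Fyco1, Nabp1 and Manea in 1.

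The 7 genes that fell did so by small steps. Egfl7, a protein secreted by endothelial cells whose gene also holds the microRNA Mir126a, was at 359, 410 and 348 CPM in sham and 224, 214 and 264 in carbon black (-0.67 ± 0.14, edgeR adjusted p = 0.0466). Rasip1, a Ras-binding protein needed for vessel lumens, was at 172, 155 and 155 against 93.7, 107 and 120 (-0.59 ± 0.11, adjusted p = 0.0206). Sigirr, a receptor that dampens interleukin 1 and Toll-like receptor signals, was at 29.3, 30.9 and 26.6 against 15.8, 17.6 and 19.6 (-0.70 ± 0.15, adjusted p = 0.0476). In each of these the highest carbon black library was under the lowest sham library. Izumo1 overlaps Rasip1 and Gm20532 overlaps Egfl7 on the same strand, so reads can be divided between them. Plac9b was at 89.8, 76.2 and 84.9 against 51.9, 45 and 62.3 (-0.66 ± 0.14, adjusted p = 0.0466); its near-copy Plac9a was at -0.43, and reads can be split between them. Wdr83, a WD-repeat scaffold, was at 14.2, 18.1 and 17.6 against 11, 10.5 and 10 (-0.66 ± 0.14, adjusted p = 0.0395). Sumf2, related to the enzyme that activates sulfatases, was at 13.1, 14.3 and 15.5 against 7.14, 9.84 and 10.7 (-0.62 ± 0.13, adjusted p = 0.0395). Prpsap1, which binds the enzyme of phosphoribosyl pyrophosphate synthesis, was at 45.9, 43 and 44.6 against 30.5, 34.8 and 35.1 (-0.41 ± 0.09, adjusted p = 0.0476). Genes on the opposite strand overlap Wdr83 (Dhps and Wdr83os), Sumf2 (Phkg1) and Prpsap1 (Gm11739). Wdr83 passed in 2 leave-outs and the other 6 genes only without carbon black replicate 3, and with DESeq2 size factors 3 of the 7 falls passed in edgeR.

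Lists of macrophage genes, and the lists further below, were read against all genes, of which 0.161% were called higher and 0.047% lower. At an unadjusted p under 0.05, 8.08% of all genes were higher and 7.14% lower. Among 16 markers of resident alveolar macrophages, 3 rose (Atp6v0d2, Ctsk and Plet1), the median log2 fold change was 0.60, and 9 had an unadjusted p under 0.05, all higher, against 8.08% of all genes. The libraries of the groups did not overlap in 7 of the 16, all higher, against 7.93% of all genes. Itgax, the integrin CD11c, was at 37.2, 32.4 and 32.7 CPM against 63.2, 62.2 and 46.5 (0.74 ± 0.18, edgeR adjusted p = 0.0917), and Marco, a scavenger receptor for particles, at 29.2, 15.1 and 22.1 against 56.9, 50.7 and 34 (1.08 ± 0.37, adjusted p = 0.186). Summed over the list, the level was 1060 to 1111 CPM in sham and 1212 to 1580 in carbon black. In RNA of a whole lung, more cells of a type and more RNA per cell cannot be told apart. Without carbon black replicate 3, 7 of the 16 passed, beside 653 of all 15089 genes tested in that fit. Without replicate 1, 2 of the 16 passed, beside 12 of all 15100. The 12 interstitial macrophage markers had a median of -0.03 and 0 called; 1 had an unadjusted p under 0.05, the platelet chemokine gene Pf4, which was lower (-0.75 ± 0.31), and DESeq2 called 0.

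In the list of phagocytic and lipid-loaded macrophage genes, 3 of 18 rose (Gpnmb, Cd68 and Olr1), and the median was 0.26. Abcg1, a cholesterol exporter, was at 0.58 ± 0.18 (edgeR adjusted p = 0.136). Spp1 (osteopontin) was at 0.24 ± 0.27 and the elastase gene Mmp12 at 0.27 ± 0.35, both with overlapping libraries. Of 20 lysosome and proton pump genes, 2 rose (Atp6v0d2 and Ctsk), both of which are also on the alveolar macrophage list. The median was 0.14 and 7 had an unadjusted p under 0.05, all higher, against 8.08% of all genes. Ctsd, an aspartic protease, was at 494, 414 and 372 CPM against 588, 767 and 690 (0.68 ± 0.16, adjusted p = 0.0811). Lipa, the lysosomal lipase, was at 77.9, 57.5 and 60.6 against 119, 120.2 and 84.7 (0.72 ± 0.17, adjusted p = 0.0811). Neither pair of groups overlapped. Without carbon black replicate 3, 6 of the 20 lysosome genes passed, beside 653 of all 15089 genes tested in that fit.

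**Figure D3:**
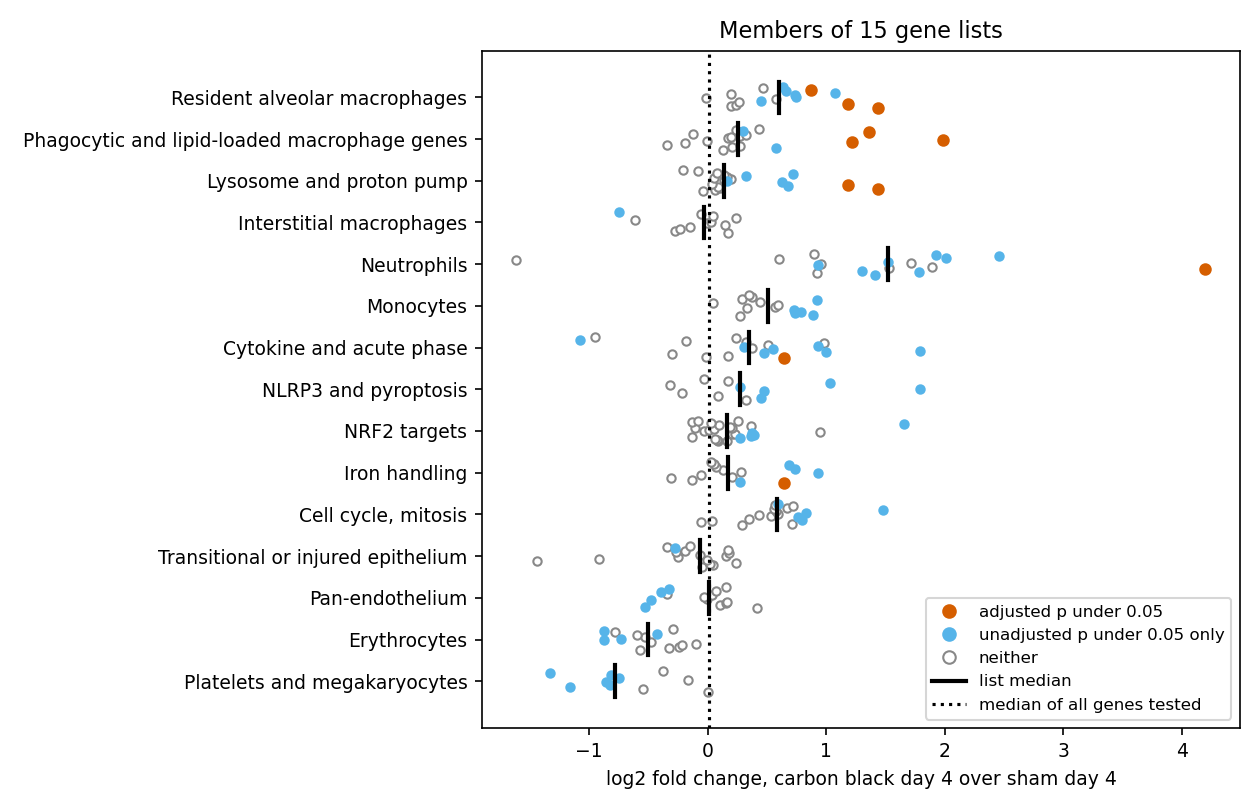
Log2 fold change of carbon black over sham on day 4 (x axis) for each tested member of 15 gene lists; orange points have an adjusted p under 0.05, blue points only an unadjusted one, bars mark list medians and the dotted line the median of all genes (0.0091). Alveolar macrophage, neutrophil and monocyte markers lie mostly right of the dotted line, and platelet and erythrocyte markers left of it.

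Neutrophil markers had the highest median of the immune cell lists, at 1.52, yet only Cxcr1 of 17 tested passed. The libraries did not overlap in 14 of the 17, all higher, against 7.93% of all genes. An unadjusted p under 0.05 was found for 9, all higher, against 8.08% of all genes. S100a8, a calcium-binding protein abundant in neutrophils, was at 16.7, 16.3 and 12.5 CPM in sham and 143, 32.9 and 75.7 in carbon black. The carbon black libraries were all higher but far apart from each other, and the log2 fold change of 2.46 ± 0.90 did not pass (edgeR adjusted p = 0.206). Lcn2, an iron-sequestering protein of neutrophils and epithelium, was at 91.5, 86 and 68.9 against 181, 159 and 130 (0.93 ± 0.25, adjusted p = 0.116). Clec4e was at 1.79 ± 0.62 (0.187) and Cd177 at 1.41 ± 0.51 (0.202). The 14 monocyte markers had a median of 0.51 with all 14 above 0, but 0 passed in edgeR and 0 in DESeq2. Of the 14, 5 had an unadjusted p under 0.05, all higher, against 8.08% of all genes. Ccr2, the receptor that brings monocytes out of the marrow, was at 28.6, 29 and 30.8 against 69.9, 48.4 and 46.8 (0.89 ± 0.35, adjusted p = 0.23), and Cx3cr1 at 0.79 ± 0.23 (0.126). T and NK cell markers (16 tested, median 0.19) and B and plasma cell markers (14, median -0.14) had 0 members past an unadjusted p of 0.05 and 0 called by edgeR or DESeq2.

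Inflammatory mediators were mostly below the threshold. Of 18 cytokine and acute phase genes tested, Cp rose and the median was 0.35. An unadjusted p under 0.05 was found for 7 upward and 1 downward, against 8.08% and 7.14% of all genes. Il1b was at 5.29, 5.68 and 4.62 CPM in sham and 22.9, 10.4 and 20.9 in carbon black, without overlap (1.79 ± 0.58, edgeR adjusted p = 0.159), and Il1a was at 0.99 ± 0.31 (0.139). Saa3, an acute phase protein, was at 10.8, 29.5 and 13.9 against 3.89, 8.74 and 11.8, the groups overlapping (-1.07 ± 0.42, adjusted p = 0.23). Tnf was at 0.842, 1.23 and 1.29 CPM against 0.649, 0.546 and 0.54 (adjusted p = 0.401). Of 12 CC chemokines, Ccl6 rose and the median was -0.10; Ccl2, which attracts monocytes, was at 0.722 CPM or less in all 6 libraries. Of 9 CXC chemokines tested, 0 passed in edgeR or DESeq2 and 2 had an unadjusted p under 0.05, Cxcl5 (6 against 18 counts) and the interferon-induced Cxcl10 (-1.16 ± 0.48, adjusted p = 0.244). Cxcl1, Cxcl2, Ccl3, Ccl4 and Il6 were too low for a test. A list of 11 genes held those of the NLRP3 inflammasome, the complex that cleaves interleukin 1 beta after particle uptake, and genes of other inflammasomes and related steps. Of the 11, 0 passed in edgeR or DESeq2 and 5 had an unadjusted p under 0.05, all higher, against 8.08% of all genes. Nlrp3 itself was at 2.65, 2.92 and 2.47 against 4.33, 4.78 and 7.16 CPM (1.03 ± 0.39, edgeR adjusted p = 0.208). Retnla, a secreted protein of alternatively activated macrophages and epithelium, was at 60.2, 53.5 and 66.9 against 125, 115 and 122 (1.00 ± 0.23, adjusted p = 0.0684). Without carbon black replicate 3, 5 of the 18 cytokine and acute phase genes passed, beside 653 of all 15089 genes tested in that fit.

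Among stress pathways, 0 of 25 targets of the antioxidant factor NRF2 passed in edgeR (1 in DESeq2), with a median of 0.17. Of the 25, 5 were higher at an unadjusted p under 0.05, against 8.08% of all genes. The cystine importer Slc7a11 was at 2.29, 2.61 and 2.26 CPM in sham and 3.46, 14.1 and 4.59 in carbon black, most of the difference lying in replicate 2 (1.66 ± 0.42, edgeR adjusted p = 0.105). Gclc, of glutathione synthesis, was at 0.39 ± 0.13 (0.158), G6pdx at 0.37 ± 0.13 (0.202) and Hmox1, heme oxygenase, at 0.21 ± 0.10 (0.33). Carbon black replicate 2 was also high in targets of the aryl hydrocarbon receptor. Cyp1a1, the enzyme most strongly induced by that receptor, was at 9.74, 197 and 21.4 CPM in carbon black against 35.7, 22.6 and 27.3 in sham, so that replicates 1 and 3 were under all sham libraries and replicate 2 far above. Nqo1 was likewise highest in replicate 2 (3.25, 18.9 and 7.57 against 6.97, 7.07 and 9.56), while Cyp1b1 (0.05 ± 0.27) and Tiparp (0.06 ± 0.10) were near 0. Of the 6 targets tested, 0 passed in either tool and 1 had an unadjusted p under 0.05. Of 15 cytosolic heat shock chaperones, 0 passed in either tool, the median was -0.07, and 1 had an unadjusted p under 0.05, Dnajb1 (-0.55 ± 0.18). Hspa1a, which has a near-identical copy, was at -0.70 ± 0.51. Of 14 iron-handling genes, Cp rose and 5 had an unadjusted p under 0.05, all higher, against 8.08% of all genes. Among the 5 was the iron exporter Slc40a1 (0.74 ± 0.24, edgeR adjusted p = 0.158).

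Cell division genes did not pass. The 18 mitosis genes had a median of 0.58, 17 of them above 0, and 0 passed in edgeR and 1 in DESeq2. Of the 18, 5 had an unadjusted p under 0.05, all higher, against 8.08% of all genes. Kif20a, a kinesin of cytokinesis, was at 2.29, 1.38 and 2.58 CPM against 8.01, 6.15 and 4.05 (1.48 ± 0.36, edgeR adjusted p = 0.0944), and Bub1b of the spindle checkpoint at 0.79 ± 0.25 (0.139). Mki67 was at 0.56 ± 0.36 with overlapping libraries. The 16 DNA replication genes had a median of 0.14, with 0 called by either tool and 0 at an unadjusted p under 0.05.

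The alveolar, club cell and endothelial lists had medians near that of all genes, and the mucous cell list a higher one. The medians were 0.14 for 15 alveolar type 2 markers, -0.04 for 11 alveolar type 1 markers, -0.13 for 12 club cell markers and -0.07 for 17 genes of transitional or injured epithelium, and edgeR called 0 in each. Unadjusted p-values under 0.05 numbered 2, 5, 0 and 1, against 8.08% of all genes higher and 7.14% lower. The 2 type 2 markers were higher, the type 1 markers were 2 higher and 3 lower, and the 1 transitional gene was lower. DESeq2 called 1 in the type 1 list and 0 in the others. Ager was at 2380, 2260 and 2176 CPM against 1836, 1664 and 1956 (-0.32 ± 0.11, edgeR adjusted p = 0.164), Scgb1a1, the club cell secretoglobin, at -0.44 ± 0.25, Sftpc at -0.16 ± 0.14 and Krt8, a keratin of injured alveoli, at -0.19 ± 0.15. Of 7 mucous cell genes tested, 6 were above 0 and the median was 0.75, but the list levels of the groups overlapped (mean log2 CPM 2.27 to 2.75 in sham and 2.45 to 3.57 in carbon black); 0 passed in either tool and 1 had an unadjusted p under 0.05, the secreted mucin gene Muc5ac (1.08 ± 0.33, adjusted p = 0.136). Of 14 pan-endothelial markers, 0 passed in edgeR and 1 in DESeq2; the median was 0.01, and 4 were lower at an unadjusted p under 0.05 against 7.14% of all genes. Esam, an adhesion molecule of endothelial junctions and platelets, was at 242.5, 230.2 and 228 CPM against 127, 192 and 185 (-0.47 ± 0.11, adjusted p = 0.0811), and the tight junction gene Cldn5 was at -0.53 ± 0.17 (0.152). The 12 capillary markers had a median of 0.11, with 0 called by either tool and 0 at an unadjusted p under 0.05. The 20 cytosolic ribosomal protein genes had a median of -0.20, with 0 called in edgeR and 1 in DESeq2. Of the 20, 8 were lower at an unadjusted p under 0.05, against 7.14% of all genes. Rpl10, which has processed pseudogenes, was at 94.9, 65.3 and 86 CPM against 17.1, 56.3 and 57.7, lowest in replicate 1. The list as a whole was lowest in replicate 2, with mean log2 CPM of 7.88, 7.74 and 7.99 in carbon black against 7.93 to 8.25 in sham.

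Blood cell markers lay below sham without passing. The 10 platelet markers had a median of -0.78, and 0 passed in edgeR and 1 in DESeq2. Of the 10, 6 were lower at an unadjusted p under 0.05, against 7.14% of all genes. The 14 erythrocyte markers had a median of -0.50 and all 14 were below 0, with 0 called by either tool. Of the 14, 4 were lower at an unadjusted p under 0.05, against 7.14% of all genes. Hba-a1, a hemoglobin gene with a near-identical copy, was at 4572, 3767 and 1787 CPM in sham and 2364, 1452 and 1716 in carbon black. Sham replicate 3 lay among the carbon black libraries, so the groups overlapped. Summed platelet markers were at 64.4 to 103 CPM in sham and 37.7 to 59.7 in carbon black, and summed erythrocyte markers at 11560 to 31280 and 11970 to 17190. How much blood each lung held was not tested. Other tissues can be collected with a lung. The 12 cardiac markers had a median of 0.08, and -1.05 without carbon black replicate 3. The 10 skeletal muscle markers had a median of 2.91, and -0.47 without that library. The 9 adipose markers also had their highest summed level of the 6 libraries there, at 587 CPM against 72.9 and 71.9 in the other carbon black libraries and 129 to 393 in sham. What part these tissues had in other results was not tested. Over the 27 lists given no median of their own, medians lay between -0.20 and 0.34, and 0 of 364 entries passed in edgeR and 6 in DESeq2. At an unadjusted p under 0.05, 28 were higher and 30 lower, pooled shares near the 8.08% and 7.14% of all genes. Some of the 27 leaned 1 way. Collagen and matrix turnover had 4 of 20 higher and 0 lower at that p, and the proteasome list 5 of 16 lower and 0 higher.

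The response after 4 exposures was then set beside that after 1 exposure, which has its own sham libraries. Of the 24 genes that rose on day 4, 22 were also above sham on day 1, a direction that 49.3% of all genes took. On day 1, 7 of the 24 passed, against 1.57% of all genes called higher there, and 14 had an unadjusted p under 0.05, all higher, against 6.28%. These were Gpnmb (0.93 ± 0.21, edgeR adjusted p = 0.0214), Cxcr1 (2.47 ± 0.44, 0.00305), Atp6v0d2 (0.66 ± 0.17, 0.0485), Ccl6 (0.77 ± 0.19, 0.032), Cd68 (0.70 ± 0.17, 0.0231), Clec5a (1.10 ± 0.24, 0.0123) and Nabp1 (0.50 ± 0.13, 0.0389). The median log2 fold change of the 24 was 0.41 on day 1 and 1.18 on day 4, where they had been chosen. Of the 7 genes that fell on day 4, 6 were below sham on day 1, as were 50.6% of all genes; 0 of them passed there in edgeR, where 0.0873% of genes were called lower, and 2 had an unadjusted p under 0.05, both lower, against 3.9% of all genes.

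The difference between the day 4 and the day 1 change was tested directly in the same fit. It passed for 14 genes, 0.094% of those tested, 1 with a higher change on day 4 (0.00672%) and 13 with a lower one (0.0873%). Without adjustment 1248 genes (8.38%) had a p under 0.05. The 1 was Cip2a, which was at 4.5, 5.19, 3.59 and 4.42 CPM in sham and 3.71, 3.94, 2.64 and 3.32 in carbon black on day 1, for a difference between days of 1.47 ± 0.29 (edgeR adjusted p = 0.0365). Its day 4 carbon black values lay within or near the range of day 1 sham, and sham itself was at -0.94 ± 0.21 on day 4 against day 1 (adjusted p = 0.502). Of the 13, 4 are on the platelet list. Itga2b, the fibrinogen receptor subunit of platelets, was at 11.8, 13.8, 12.2 and 13.7 CPM in sham and 20.7, 25.9, 32.5 and 28.3 in carbon black on day 1. On day 4 it was at 20.2, 14.3 and 17.6 in sham and 6.92, 8.74 and 12.7 in carbon black, so the groups lay apart in opposite directions. The difference was -1.92 ± 0.28 (adjusted p = 0.00461).

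The difference also passed for Treml1, a receptor of platelet granules (-2.66 ± 0.49, edgeR adjusted p = 0.0159), Ppbp, a platelet chemokine (-2.35 ± 0.39, 0.0115), Tubb1, the beta-tubulin of platelets (-1.92 ± 0.33, 0.0115), Gp5, a platelet surface glycoprotein (-2.43 ± 0.44, 0.0142), and Mfsd2b, a lipid exporter of platelets and erythrocytes (-2.005 ± 0.32, 0.0106). All 6 rose on day 1, by 1.06 to 1.55 on the log2 scale, and none passed on day 4, where they stood at -1.33 to -0.37. Of the other 7 genes with a lower change on day 4, Dnajb1, a heat shock cochaperone, was at 66.3, 51.5, 53 and 54.2 CPM in sham and 83.1, 122, 97.6 and 88.7 in carbon black on day 1. On day 4 it was at 80.3, 51.3 and 66.3 against 37.9, 50.8 and 46.4. The groups lay apart upward on day 1. On day 4 they were barely apart downward, with the highest carbon black value at 50.8 and the lowest sham value at 51.3 CPM. That fall did not pass (-0.55, edgeR adjusted p = 0.157). The difference between days was -1.34 ± 0.23 (edgeR adjusted p = 0.0115). Of the 15 chaperones listed, 6 rose on day 1 and Dnajb1 alone passed in the difference. Ahsa2, related to an activator of the chaperone Hsp90, differed by -1.28 ± 0.23 (0.0119). The remaining 5, which were not sorted by cell type, were Alox12, Proser2, Dedd2, Banp and Cdr2, at -1.83 to -0.83.

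The sham libraries of the days also lay apart in part of the platelet genes. Itga2b was 0.44 ± 0.19 higher in sham on day 4 than on day 1, and the mean log2 CPM of the platelet list was 1.88 to 2.21 in sham on day 1 and 2.22 to 2.77 on day 4. Sham day 4 against sham day 1 gave 0 genes past the threshold in edgeR and 1473 (9.89%) at an unadjusted p under 0.05. Without sham replicate 1 of day 4, 2 genes passed in the difference between days, without carbon black replicate 1 of day 4, 9, and without carbon black replicate 1 of day 1, 42.

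List levels by library put the neutrophil markers at a mean log2 CPM of 2.19 to 2.59 in sham and 3.50 to 4.00 in carbon black on day 4, and at 2.38 to 3.41 and 3.36 to 6.90 on day 1, where carbon black replicate 2 overlapped sham. Of the 17 markers, 15 passed upward on day 1 and 1 on day 4, but 0 passed in the difference between days. S100a8 differed by -2.17 ± 1.15 between days (edgeR adjusted p = 0.642), so a smaller neutrophil signal on day 4 was not shown. The alveolar macrophage markers were at 5.16 to 5.35 in sham and 5.70 to 5.96 in carbon black on day 4, and overlapped on day 1, at 5.38 to 5.78 and 5.45 to 6.10. The erythrocyte markers overlapped on both days.

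**Figure D4:**
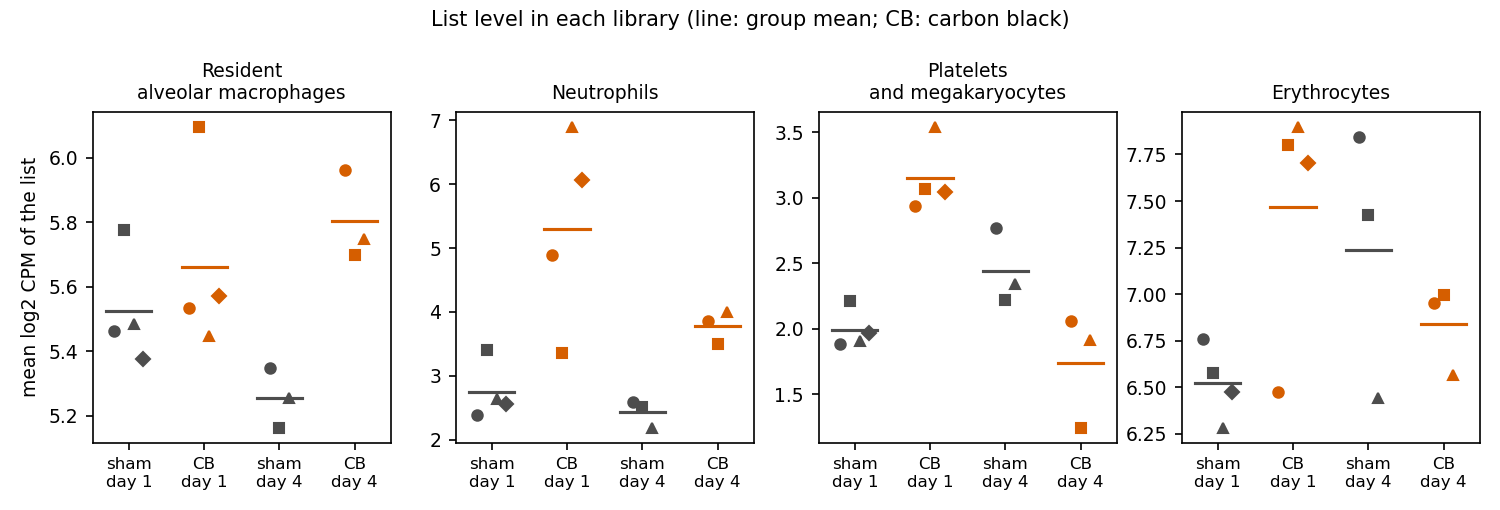
Mean log2 CPM (y axis) of 4 marker lists in each sham (grey) and carbon black (orange) library of days 1 and 4, with lines at group means and a symbol for each replicate number. Platelet markers are above sham in all 4 carbon black libraries of day 1 and below all sham libraries in the 3 of day 4, and the alveolar macrophage and neutrophil levels of the groups do not overlap on day 4 and overlap on day 1, a difference between days that no member of either list passed.

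Ozone and co-exposure on day 4 were compared with the same 3 sham libraries, so their values are given side by side and no agreement between them is counted. There, 3089 genes passed after ozone (20.7%) and 5073 after co-exposure (34.1%). Gpnmb was at 1.98 in the carbon black group, 1.76 ± 0.26 with ozone and 1.45 ± 0.26 with co-exposure, and Ccl6 at 1.49, 1.27 ± 0.22 and 1.07 ± 0.22. Retnla, at 1.00 after carbon black, was at 4.56 ± 0.25 and 5.12 ± 0.26. The mitosis list had medians of 0.58, 3.21 and 3.61, the pan-endothelial list 0.01, -0.59 and -1.02, and the transitional epithelium list -0.07, 0.99 and 1.09. Fyco1 was at 0.64 with carbon black, 0.04 ± 0.13 with ozone and -0.13 ± 0.13 with co-exposure.

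The direct test of carbon black against ozone on day 4, in which 9.16% of genes were higher and 10.9% lower after carbon black, found 3 of the 24 risen genes higher and 3 lower. Higher were Cxcr1 (1.83 ± 0.46, edgeR adjusted p = 0.00595), Ceacam1 (0.44 ± 0.13, 0.0168) and Fyco1 (0.60 ± 0.13, 0.00151). Lower were Ctsk (-1.06 ± 0.18, 0.000157), Clec5a (-0.97 ± 0.26, 0.00994) and Cip2a (-2.22 ± 0.20, 2.31e-08). Of the 7 fallen genes, Sumf2, Wdr83 and Prpsap1 were lower after carbon black than after ozone. The carbon black libraries that chose these genes also enter this test, so the counts are a description. Gpnmb differed by 0.22 ± 0.24 (adjusted p = 0.546) and Atp6v0d2 by 0.04 ± 0.20 (0.906), neither past the threshold. Saa3 (-2.49 ± 0.41) and Spp1 (-1.23 ± 0.26) were lower, with adjusted p of 0.000169 and 0.00188.

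**Figure D5:**
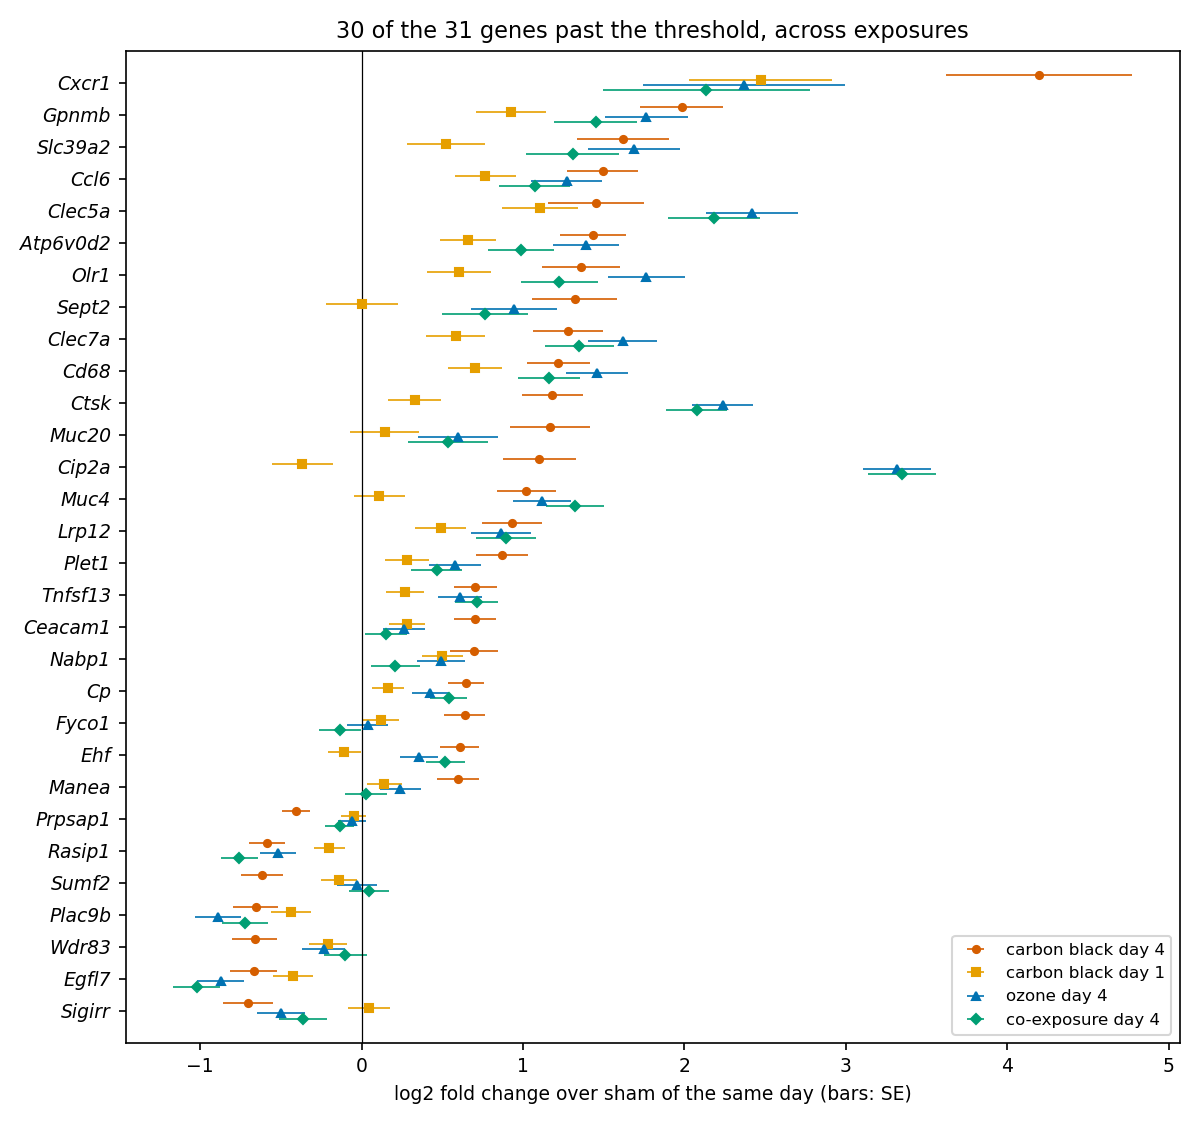
Log2 fold change over sham of the same day, with SE bars (x axis), of 30 of the 31 genes past the threshold in carbon black on day 4, after carbon black on days 4 and 1 and after ozone and co-exposure on day 4; Ear6, with 0 counts in sham, is left out. The 3 day 4 contrasts share their sham libraries. Carbon black on day 1 lies nearer 0 than on day 4 for most genes, and Cip2a and Ctsk are highest after ozone and co-exposure.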

How the data were processed

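Messenger RNA of whole lung was measured in 28 libraries, of which 6 form the comparison. Per the labels, Salmon 1.1.0 was the authors' quantifier; mm10, R 3.6.3 and DESeq2 stand in the submitters' processing notes without a role. The deposited values are estimated counts per gene, not normalized, with 17.7% not whole, and were rounded here. Salmon divides reads between similar transcripts, so near-identical and overlapping genes are uncertain. Symbols and coordinates came from GENCODE M21 (GRCm38), which named 35505 of 35880 identifiers. Filtering with filterByExpr left 14887 genes and 99.9% of counts, and TMM factors were 0.902 to 1.05.

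All 28 libraries, 8 groups in all, entered 1 edgeR 4.0.16 quasi-likelihood fit (R 4.3.3, robust, 20 residual degrees of freedom, biological coefficient of variation 15.7%), with Benjamini-Hochberg adjustment over all genes and a threshold of 0.05. The fit was tested on simulated data. List levels are means of log2 CPM with a prior count of 2. A gene with 0 counts could lie under 3 counts, 0.321 to 0.584 CPM in these libraries; intervals and floors cover counting error only. No 2 of the 6 libraries agreed within sampling noise, so none was taken for a repeat deposit of another, which does not show that they are separate mice.

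The genes named are all past the threshold, up to 4 members of each list by p, 25 fixed genes and the largest differences between days; Ckm, Mettl17, Plac9a, Ahsa2, Alox12, Proser2, Dedd2, Banp, Cdr2, the difference of Dnajb1 and the second Sept2 identifier were chosen after their values were seen, as were the motifs. The members and the 57 gene lists were chosen with earlier results of these data known, so lists have counts and medians but no test. Alternatives were other scaling, filters, DESeq2 1.42.0, limma-voom (limma 3.58.1), fewer libraries, a replicate block and each library left out.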

Additional observations from a re-analysis of the deposited data

Results flagged for a closer look

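The change after carbon black differed between day 4 and day 1, by the test of the difference in edgeR, for Cip2a (1.47 on the log2 scale), Itga2b (-1.92), Mfsd2b (-2.005), Treml1 (-2.66), Gp5 (-2.43), Ppbp (-2.35) and Tubb1 (-1.92), and also for Dnajb1 (-1.34), Ahsa2 (-1.28), Alox12 (-1.83), Proser2 (-1.21), Dedd2 (-0.99), Banp (-0.94) and Cdr2 (-0.83). Itga2b, Mfsd2b, Treml1, Gp5, Ppbp and Tubb1 are expressed by platelets, and each was above sham on day 1 and not past the threshold on day 4. The other genes were not checked for expression by platelets. Among 20 groups of 4 day 1 libraries that were examined, 3 held a library far from the other 3 by Dixon's criterion, where chance flags about 1 in 20. These were a Gp5 value of 10.1 CPM and a Ppbp value of 77.1 CPM, both in carbon black replicate 3 of day 1, and an erythrocyte list level of 6.48 (mean log2 CPM) in carbon black replicate 1 of day 1.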

How the results depend on the processing

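The count of 31 genes ranged from 8 to 653 when single libraries were left out. It was 175 with DESeq2 (29 of the 31 among them), 19 with limma-voom, 7 with only the 6 compared libraries (3 of the 31) and 5 with only the 12 day 4 libraries (2 of the 31). For Cxcr1 and Ear6, DESeq2 gave no adjusted p. Other scaling and filters gave 23 to 27. The 14 genes whose change differed between days became 41 with DESeq2 and ranged from 2 to 42 with a library left out. Whether replicate numbers pair these libraries could not be decided, since 3 libraries a group are too few to tell. Deviations of same-numbered libraries correlated at 0.07, -0.03 and 0.13, and those of other pairs at -0.217 to 0.172. With a replicate block the count was 43 over 28 libraries and 9 over the 6 compared libraries, and the difference between days gave 21. Not every library correlated best with its own number.

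Of 494 recomputed values of the called genes, 271 kept their call, 223 no longer passed and none changed sign. The sign could hardly change, since the groups did not overlap in any called gene. Of 879 values of other named genes, 30 came to pass and 5 changed sign. Without carbon black replicate 2, Cyp1a1 was at -0.839, Nqo1 at -0.48 and Cyp1b1 at -0.25, and without sham replicates 1 and 2 Cyp1b1 was at -0.02 and -0.11; the highest values with a library left out were 1.93, 0.74 and 0.33. List medians stayed within the spread between libraries in 459 of 480 recomputations. For CC chemokines (-0.10) the median was 0.32 with only the 6 compared libraries, 0.31 with the replicate block on these and 0.15 with the 12 day 4 libraries, and for cytokine and acute phase genes (0.35) it was 0.47 with the 6 libraries, with and without the block. With single libraries left out, medians ranged from 0.37 to 0.72 for monocytes, -0.23 to 0.082 for CC chemokines and 0.27 to 0.51 for cytokine and acute phase genes. They ranged from 0.13 to 0.31 for NLRP3 and related genes, -0.034 to 0.28 for T and NK cells and -0.15 to 0.061 for alveolar type 1 cells. For transitional epithelium they ranged from -0.19 to -0.0054, for mucous cells from 0.27 to 0.98 and for endothelium from -0.14 to 0.12. Cardiac muscle ranged from -1.05 to 0.45 and skeletal muscle from -0.47 to 3.47. The low-count filter was rerun in each fit and left 14120 genes with the 6 compared libraries and 14521 with the 12 day 4 libraries, against 14887. List medians cover only the members still tested, so they can rest on fewer genes. Other scaling shifted list levels by at most 0.0179. The causes were not tested. Depth limits genes under about 1 CPM, where counts are few.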
